A study of Homo sapiens with 9 samples.

Results

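The genes described here are 50 named genes of human chromosome 21, read in HL-60 cells that were made resistant to either of a pair of anti-leukaemia drugs. HL-60 is an established promyelocytic line from a human acute myeloid leukaemia. HRD cells are HL-60 cells resistant to DNR (daunorubicin, an anthracycline) and kept in 30 nM DNR. HRA cells are HL-60 cells resistant to Ara-C (cytarabine, a nucleoside analogue) and kept in 100 nM Ara-C. Parental HL-60 cells, labelled as such, are the common comparison for both. Each group has 3 libraries of polyadenylated RNA, labelled as biological replicates, so p-values measure the spread between those cultures of 1 line per group. Whether a resistant line is 1 clone, and whether drug was present at harvest, is not given in the sources used here. The genes were named by symbol after earlier results of these data were known, with no stated threshold, so every difference between the groups below describes them and is support for nothing. Of the 50 genes, 49 had a row of their symbol among 20637 genes, and WRB, which encodes a receptor for tail-anchored membrane proteins, was not analysed here. A level filter, which asked for 10 or more normalized reads in 3 or more of the 9 libraries, kept 47 of them and 12569 genes in all.

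Chromosome 21 is the smallest human autosome. Its long arm carries a cluster of class II cytokine receptor genes, whose products bind interferons and interleukin 10 and signal through JAK kinases and STAT factors. The same arm carries genes for purine synthesis, ribosome assembly, splicing and nucleosome binding, which most cells use. In blood, the chromosome is known for the leukaemias of children with an extra copy of it, and gains of it recur in other leukaemias.

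The promoters of the receptor genes and of the GART and SON pair are shown because the receptors lay side by side and the pair, transcribed away from a common start region, differed in its readouts. RefSeq promoter windows (GRCh38.p14, from 250 bases before to 50 bases after a gene's start) were found for 40 of the 50 genes. The 10 without an entry are JAM2, SCAF4, PAXBP1, IFNAR2, TMEM50B, DONSON, WRB, BACE2, RRP1B and CSTB. Capitals mark matches, on either strand, to GGGCGG (SP1 box), CCAAT (the box of that name), CCGGAA (ETS core), CACGTG (E-box) or TATAAA (found in the TATA box). A motif and its reverse complement may overlap, as the ETS core does at the first base of the IFNGR2 window.
IL10RB promoter, chr21:33266117-33266416, + strand: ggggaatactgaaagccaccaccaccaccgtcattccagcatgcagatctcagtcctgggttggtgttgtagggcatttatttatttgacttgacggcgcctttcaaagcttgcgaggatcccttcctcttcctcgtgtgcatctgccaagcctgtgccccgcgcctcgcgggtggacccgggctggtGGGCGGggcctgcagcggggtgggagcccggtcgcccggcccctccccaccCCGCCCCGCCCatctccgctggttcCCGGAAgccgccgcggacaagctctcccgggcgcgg
IFNAR1 promoter, chr21:33324145-33324444, + strand: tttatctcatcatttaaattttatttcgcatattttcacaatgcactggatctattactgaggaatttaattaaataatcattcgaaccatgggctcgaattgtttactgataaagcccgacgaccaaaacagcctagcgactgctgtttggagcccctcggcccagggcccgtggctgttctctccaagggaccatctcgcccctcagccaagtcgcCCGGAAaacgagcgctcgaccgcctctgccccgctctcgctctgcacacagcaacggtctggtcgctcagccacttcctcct
IFNGR2 promoter, chr21:33403163-33403462, + strand: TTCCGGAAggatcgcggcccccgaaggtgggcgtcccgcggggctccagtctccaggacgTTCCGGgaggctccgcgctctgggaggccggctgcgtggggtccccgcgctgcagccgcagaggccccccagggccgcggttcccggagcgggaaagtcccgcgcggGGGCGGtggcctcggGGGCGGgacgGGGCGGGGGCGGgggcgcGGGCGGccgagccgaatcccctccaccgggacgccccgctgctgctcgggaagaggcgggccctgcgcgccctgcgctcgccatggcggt
Bases shared by the GART and SON windows, chr21:33542843-33543087, + strand: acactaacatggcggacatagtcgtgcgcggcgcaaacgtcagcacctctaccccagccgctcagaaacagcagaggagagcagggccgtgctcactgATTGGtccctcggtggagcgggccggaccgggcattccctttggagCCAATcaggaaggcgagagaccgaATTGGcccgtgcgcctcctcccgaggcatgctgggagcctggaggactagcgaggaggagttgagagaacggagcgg

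The IL10RB window held 3 SP1 boxes and 1 ETS core, and the IFNGR2 window held 5 SP1 boxes and 3 ETS matches. The IFNAR1 window held 1 ETS core and no SP1 box. The 245 bases shared by GART and SON, whose starts lie 146 bases apart, held 3 CCAAT boxes. Over the 40 windows, 72.5% held an SP1 box, against 44.6% of all 27305 RefSeq windows. An ETS core stood in 40.0% of the 40 windows and in 17.6% of all windows. The CCAAT box (35.0% against 35.7%), the E-box (7.5% against 7.43%) and the TATA box (10.0% against 12.0%) stood in shares closer to those of all windows. Median GC content was 71.5% in the 40 windows and 58.3% in all windows, and GC-rich motifs follow GC content. These letter matches describe the windows and are not binding sites.

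Across the 47 genes, levels in HRD cells were mostly above those of parental cells, and levels in HRA cells were above them by less. The median log2 fold change over parental cells was 0.34 in HRD cells and 0.21 in HRA cells, while over all tested genes it was 0.01 and -0.01. In HRD cells 44 of the 47 genes lay above 0, and in HRA cells 39 did, while 51.1% and 49.2% of all tested genes did. Both comparisons use the same 3 parental libraries. By limma with Benjamini-Hochberg adjustment over all tested genes at 0.05, 27 of the 47 rose in HRD cells, where 10.7% of all tested genes rose, and 12 of the 47 rose in HRA cells, where 9.13% of all tested genes rose. With the replicate number as a block in the fit, 16 of the 47 rose in HRA cells, as did 1572 of all 12569 tested genes. These contrasts chose the genes, so nothing is read from the shares. None of the 47 fell by limma, edgeR or DESeq2 in either resistant line. By limma, 12.0% of all tested genes fell in HRD cells and 6.10% in HRA cells. In neither line was any of the 47 lower at an unadjusted p under 0.05. Of all 12569 tested genes, 2264 were lower and 2145 higher at that level in HRD cells. In HRA cells 1797 were lower and 2132 higher, and in HRD over HRA cells 2754 and 2529. Counts at that level below stand beside these. Differences of single genes below are log2 fold changes over parental cells with their SE, unless another comparison is named. In RNA of bulk cells, fewer cells with a transcript and less of it per cell cannot be told apart.

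**Figure D1:**
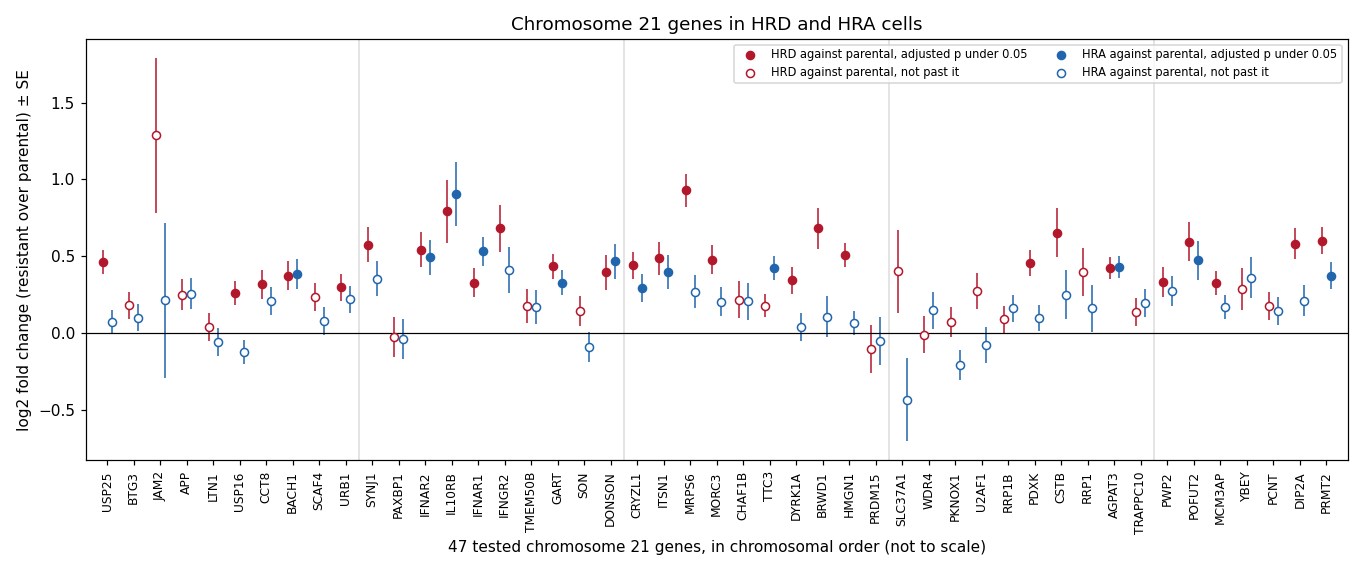
The log2 fold change with its standard error (y axis) of each of the 47 tested genes in chromosomal order (x axis, not to scale), HRD over parental cells in red and HRA over parental cells in blue, with filled points past the adjusted p of 0.05 and grey lines between blocks of 10 genes. The 27 filled red and 12 filled blue points all lie above 0, and the highest filled points are MRPS6 in HRD cells at 0.93 and IL10RB in HRA cells at 0.90.

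Single libraries stood in the same order of the groups, but these are the values that chose the genes, so their order adds no support. The median difference of the 47 genes from the parental mean was 0.42, 0.40 and 0.33 (log2) in the HRD libraries, 0.22, 0.16 and 0.24 in the HRA libraries and 0.01, 0.05 and -0.05 in the parental libraries. The 3 groups did not overlap in this median, while the median over all tested genes was -0.009 to 0.013 in the 9 libraries. Above the parental mean lay 46, 41 and 47 of the 47 genes in the HRD libraries, 38, 37 and 42 in the HRA libraries and 24, 33 and 14 in the parental libraries. The counts of called genes moved with single libraries. Of the 27 calls in HRD cells, 22, 22 and 24 passed without HRD replicate 1, 2 or 3, and 21, 24 and 19 without parental replicate 1, 2 or 3, where RRP1 (without parental replicate 1) and JAM2 (without parental replicate 2) were gained. In all 6 fits 18 genes passed. Of the 12 calls in HRA cells, 5, 3 and 7 passed without HRA replicate 1, 2 or 3, and 8, 11 and 8 without parental replicate 1, 2 or 3, where PWP2 (without parental replicate 1) and IFNGR2 (without parental replicate 2) were gained. IFNAR1, TTC3 and AGPAT3 passed each time.

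The other 9 calls in HRA cells were lost without at least 1 library, and their highest limma adjusted p was reached by BACH1 (0.0909 without HRA replicate 2), IFNAR2 (0.0681 without HRA replicate 2), IL10RB (0.0629 without HRA replicate 2), GART (0.0771 without HRA replicate 3) and DONSON (0.0858 without HRA replicate 2), and by CRYZL1 (0.183 without HRA replicate 2), ITSN1 (0.113 without HRA replicate 1), POFUT2 (0.116 without HRA replicate 1) and PRMT2 (0.0704 without HRA replicate 2). In HRD cells 9 calls were lost in the same way, with the highest limma adjusted p for USP16 (0.0757 without parental replicate 2), CCT8 (0.0968 without HRD replicate 2), BACH1 (0.0532 without parental replicate 1), URB1 (0.0841 without parental replicate 2) and IL10RB (0.067 without parental replicate 3), and for IFNAR1 (0.0973 without HRD replicate 2), DONSON (0.095 without parental replicate 3), DYRK1A (0.0622 without parental replicate 3) and PWP2 (0.108 without parental replicate 3). All of these genes stayed above 0 on the log2 scale without those libraries. With the HRD and parental libraries alone, the HRD calls of USP16 (limma adjusted p = 0.0839), CCT8 (0.0806), PWP2 (0.0674), URB1 (0.065) and DYRK1A (0.0538) were lost, and without the level filter those of USP16 (0.0534) and CCT8 (0.0549).

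**Figure D2:**
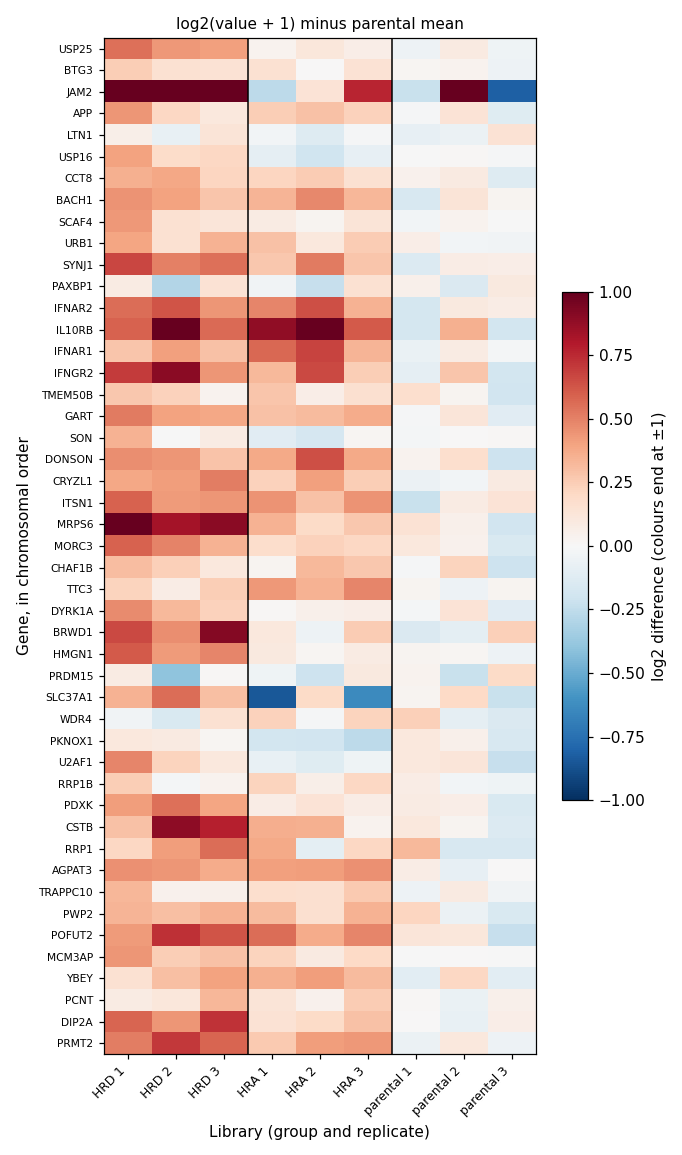
The difference in log2(normalized read count + 1) from the parental mean (colour, which ends at ±1) for the 47 tested genes in chromosomal order (rows) in each of 9 libraries (columns). The HRD columns are mostly red, with medians of 0.42, 0.40 and 0.33, the HRA columns are paler and the parental columns lie near 0.

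In chromosomal order, the genes fell into 4 blocks of 10 and a last block of 7. The medians over parental cells were 0.28, 0.42, 0.46, 0.33 and 0.33 in HRD cells and 0.15, 0.38, 0.21, 0.15 and 0.28 in HRA cells, from USP25 to PRMT2. Calls in HRD cells were spread over all blocks, with 5, 7, 7, 3 and 5 genes. In HRA cells 5 of the 12 calls lay in the second block, SYNJ1 to DONSON, which holds the receptor cluster, and the other blocks held 1, 3, 1 and 2. The last block had no gene below 0 in either line.

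The 4 class II cytokine receptors were above parental cells in both lines. All 4 rose in HRD cells, and IL10RB, IFNAR1 and IFNAR2 rose in HRA cells. IFNAR1 and IFNAR2 are the chains of the type I interferon receptor. IFNAR1 had 3226, 3537 and 3247 normalized reads in HRD cells, 3961, 4252 and 3358 in HRA cells and 2542, 2811 and 2618 in parental cells. IFNAR2 had 899, 948 and 829 normalized reads in HRD cells, 858, 954 and 779.7 in HRA cells and 542, 655 and 643 in parental cells. For both genes each resistant library lay above each parental library. The log2 fold change of IFNAR1 was 0.33 ± 0.09 (SE) in HRD cells and 0.53 ± 0.09 in HRA cells, and that of IFNAR2 was 0.54 ± 0.11 and 0.49 ± 0.11. The IFNAR1 call in HRD cells was lost without HRD replicate 2, HRD replicate 3, parental replicate 1 or parental replicate 3 (limma adjusted p = 0.0973, 0.0507, 0.0797 and 0.0701). The IFNAR2 call in HRA cells was lost without HRA replicate 1 or 2 (limma adjusted p = 0.0561 and 0.0681).

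IL10RB encodes a chain shared by the receptors of interleukin 10, interleukin 22 and the lambda interferons. IL10RB had 1343, 2065 and 1319 normalized reads in HRD cells, 1647, 2060.3 and 1362 in HRA cells and 787, 1141 and 784 in parental cells. Replicate 2 was the highest library in each group, and the parental libraries did not reach the lowest HRD library or the lowest HRA library. The log2 fold change was 0.79 ± 0.21 in HRD cells, a fold of 1.73, and 0.90 ± 0.21 in HRA cells, a fold of 1.87. Its SE was the largest of the receptors. The IL10RB call was lost in HRD cells without HRD replicate 2, parental replicate 1 or parental replicate 3 (limma adjusted p = 0.0611, 0.0596 and 0.067), and in HRA cells without HRA replicate 1, HRA replicate 2 or parental replicate 3 (0.0501, 0.0629 and 0.0538).

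IFNGR2 encodes the signalling chain of the interferon gamma receptor. IFNGR2 had 3463, 3972 and 2889 normalized reads in HRD cells, 2669, 3355 and 2523 in HRA cells and 2001, 2574 and 1869 in parental cells. Replicate 2 was again the highest in each group, and the HRA and parental groups overlapped through parental replicate 2. Its log2 fold change was 0.68 ± 0.15 in HRD cells and 0.41 ± 0.15 in HRA cells. In HRA cells it missed the threshold (limma adjusted p = 0.091) and passed with the replicate number as a block (0.00353) and without parental replicate 2 (0.0397). Between HRD and HRA cells, none of the 4 receptors was called by limma, edgeR or DESeq2 or had an unadjusted p under 0.05, and their differences ran from -0.20 for IFNAR1 to 0.27 for IFNGR2. Without HRA replicate 3, IFNAR1 was called lower in HRD than in HRA cells, by -0.30 (limma adjusted p = 0.0421).

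**Figure D3:**
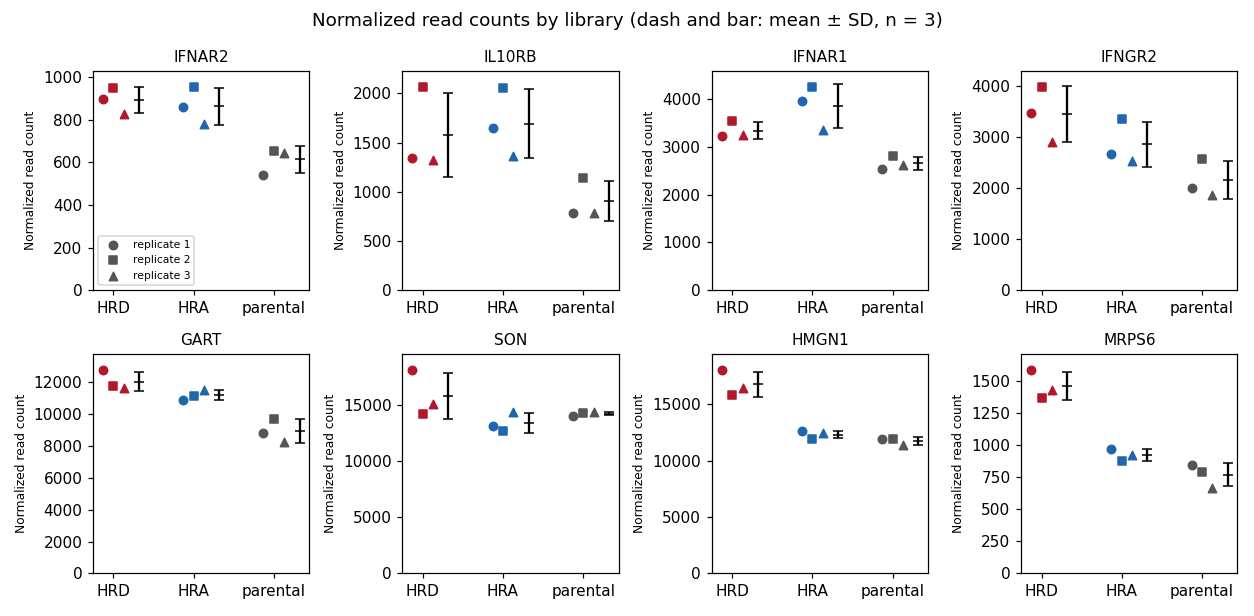
Normalized read counts (y axis, from 0) of 8 chromosome 21 genes in each library, with HRD, HRA and parental cells from left to right, symbols for replicates 1 to 3, and a dash and bar for mean ± SD (n = 3). IFNAR2, IL10RB, IFNAR1 and GART lie above the parental libraries in both resistant lines, the HRD libraries of HMGN1 and MRPS6 lie above all others, and the groups of SON overlap.

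Of 11 listed partners of these receptors on other chromosomes, 8 were tested. In HRD cells 2 rose and 1 fell. USP18, a protease induced by interferon that restrains its receptor, changed by 1.01 ± 0.20, and IFNGR1, the ligand-binding chain that pairs with IFNGR2, by 0.51 ± 0.08. STAT3, the main STAT of interleukin 10 signalling, changed by -0.63 ± 0.11. In HRA cells only the kinase JAK1 passed, at 0.32 ± 0.09, and USP18 had the lowest value, -0.19 ± 0.20. The median of the 8 was 0.06 in HRD cells and 0.12 in HRA cells, while that of the 4 receptors was 0.61 and 0.51.

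Of 10 ribosome, splicing and tRNA genes, MRPS6, PWP2 and URB1 rose in HRD cells, and in HRA cells none passed by limma, edgeR or DESeq2, with 4 above 0 at an unadjusted p under 0.05. At that level 2132 of all 12569 tested genes were higher in HRA cells. The group median was 0.28 in HRD cells and 0.16 in HRA cells. MRPS6 encodes a protein of the small mitochondrial ribosomal subunit. MRPS6 had 1582, 1363 and 1429.9 normalized reads in HRD cells, 972, 874 and 921 in HRA cells and 843, 790.1 and 668 in parental cells. Each HRD library lay above all HRA and parental libraries, and the HRA libraries lay above the parental libraries by a smaller gap. The log2 fold change was 0.93 ± 0.11 in HRD cells and 0.27 ± 0.11 in HRA cells, and HRD exceeded HRA cells by 0.66 ± 0.11. PWP2, a subunit of the UTP-B complex of ribosome assembly, averaged 2818 ± 46.8, 2717 ± 186 and 2253 ± 303 normalized reads in HRD, HRA and parental cells (SD, n = 3 each). URB1, a nucleolar assembly factor of the large subunit, averaged 2956 ± 256, 2794 ± 196 and 2398 ± 97.4, and was called in HRA cells only with the replicate number as a block (limma adjusted p = 0.0479).

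RRP1 and RRP1B are paralogues that act in processing of ribosomal RNA. RRP1 had 1689.7, 1955 and 2149 normalized reads in HRD cells, 1899, 1364 and 1684 in HRA cells and 1829, 1308 and 1305 in parental cells. RRP1B had 6930.0, 5766 and 5988 normalized reads in HRD cells, 6801, 6060.5 and 6745 in HRA cells and 6134, 5714 and 5655 in parental cells. Groups of both genes overlapped in each comparison. RRP1 differed from parental cells by 0.39 ± 0.16 in HRD cells and 0.16 ± 0.16 in HRA cells, and RRP1B by 0.09 ± 0.09 and 0.16 ± 0.09. Without parental replicate 1, its highest parental library, RRP1 was called in HRD cells (log2 0.56, limma adjusted p = 0.0222).

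SON, a splicing cofactor of nuclear speckles, was called in neither line, unlike its divergent neighbour GART. SON had 18099, 14172 and 15087 normalized reads in HRD cells, 13170.2, 12670.2 and 14395 in HRA cells and 14059, 14279 and 14353 in parental cells. The groups overlapped, with differences of 0.14 ± 0.10 in HRD cells and -0.09 ± 0.10 in HRA cells. U2AF1 encodes the factor that reads the last bases of an intron and is recurrently mutated in myeloid neoplasms. U2AF1 had 22082, 18394 and 16925 normalized reads in HRD cells, 14965, 14434 and 15285 in HRA cells and 16955, 17103 and 13428 in parental cells. It differed by 0.27 ± 0.12 in HRD cells and -0.08 ± 0.12 in HRA cells, with parental libraries on both sides of the HRA values. WDR4, which works with METTL1 to methylate tRNA, differed by -0.01 ± 0.12 in HRD cells and 0.15 ± 0.12 in HRA cells. WDR4 had 1946, 1793 and 2219 normalized reads in HRD cells, 2343, 1976 and 2326 in HRA cells and 2347, 1869 and 1803 in parental cells. The HRD difference was the nearest to 0 of the 47 genes, and the groups overlapped. YBEY, an endonuclease of mitochondrial RNA, and SCAF4, which binds RNA polymerase and limits readthrough, passed in neither line, with 0.29 and 0.23 in HRD cells and 0.36 and 0.08 in HRA cells. With upper-quartile scaling SCAF4 passed in HRD cells (limma adjusted p = 0.0473).

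Of 9 chromatin and transcription genes, BACH1, BRWD1, HMGN1, MORC3 and PRMT2 rose in HRD cells, and BACH1 and PRMT2 rose in HRA cells. HMGN1 binds nucleosomes and opens chromatin. HMGN1 had 18019.7, 15782 and 16479 normalized reads in HRD cells, 12601, 11934 and 12427 in HRA cells and 11961, 11946 and 11375 in parental cells. The HRD libraries stood above all others, and the HRA and parental ranges overlapped. Its log2 fold change was 0.51 ± 0.08 in HRD cells and 0.07 ± 0.08 in HRA cells, and HRD exceeded HRA cells by 0.44 ± 0.08. BRWD1 encodes a bromodomain protein that reads acetylated histones. BRWD1 had 3095, 2710.0 and 3707 normalized reads in HRD cells, 2113, 1897 and 2338 in HRA cells and 1777, 1835 and 2307 in parental cells. HRD libraries were again above all others, at 0.68 ± 0.13 over parental cells, while the HRA value was 0.11 ± 0.13.

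BACH1, a heme-sensitive repressor of antioxidant genes, differed by 0.37 ± 0.10 in HRD cells and 0.38 ± 0.10 in HRA cells, and averaged 1681 ± 100.2, 1693 ± 102 and 1299 ± 132 normalized reads in HRD, HRA and parental cells (SD, n = 3 each). PRMT2, a protein arginine methyltransferase, differed by 0.60 ± 0.09 in HRD cells and 0.37 ± 0.09 in HRA cells. MORC3, a nuclear ATPase found in PML bodies, differed by 0.48 ± 0.09 and 0.21 ± 0.09. CHAF1B, the middle subunit of the chromatin assembly factor CAF-1, passed in neither line, with 0.22 ± 0.12 in HRD cells and 0.21 ± 0.12 in HRA cells. The calls of this group that rested on single libraries were BACH1 in both lines and PRMT2 in HRA cells.

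PKNOX1, PRDM15 and PAXBP1 were the transcription regulators nearest to or below parental levels. PKNOX1 encodes a homeodomain partner of HOX proteins. PKNOX1 had 783, 773 and 734 normalized reads in HRD cells, 639, 636 and 607 in HRA cells and 780.1, 753 and 650.5 in parental cells. The HRA libraries were below all parental libraries, without a call, at -0.21 ± 0.10, while HRD cells were at 0.07 ± 0.10. PRDM15 encodes a zinc finger protein of the PRDM family. PRDM15 had 512, 365 and 487 normalized reads in HRD cells, 469, 418 and 515 in HRA cells and 494, 413 and 550.1 in parental cells. PAXBP1, which binds PAX proteins, is the third of them. PAXBP1 had 3529, 2733 and 3686 normalized reads in HRD cells, 3253, 2845 and 3707 in HRA cells and 3455, 3017 and 3579 in parental cells. Replicate 2 was the lowest library of every group for PRDM15 and PAXBP1, and the groups of both overlapped.

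Among ubiquitin and protein quality genes, USP25, USP16, CCT8 and CSTB rose in HRD cells and TTC3 rose in HRA cells, of 6 tested. USP25 and USP16 are deubiquitinases, and USP16 acts on histone H2A. USP25 differed by 0.46 ± 0.08 in HRD cells and 0.07 ± 0.08 in HRA cells. USP16 had 4480.2, 3850.3 and 3914 normalized reads in HRD cells, 3196, 2954 and 3203 in HRA cells and 3387, 3427 and 3377 in parental cells. HRD libraries lay above and HRA libraries below all parental libraries, at 0.26 ± 0.08 and -0.12 ± 0.08, and the HRA value did not pass. TTC3 encodes a ubiquitin ligase that targets phosphorylated AKT. TTC3 had 5273, 4744 and 5353 normalized reads in HRD cells, 6116, 5736 and 6335 in HRA cells and 4610.2, 4353 and 4592 in parental cells. The 3 groups did not overlap, with HRA cells highest at 0.42 ± 0.08 and HRD cells at 0.18 ± 0.08, which did not pass.

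CSTB encodes cystatin B, an inhibitor of lysosomal cathepsins, and averaged 929.9 ± 194, 696 ± 86.4 and 582 ± 49.1 normalized reads in HRD, HRA and parental cells (SD, n = 3 each). Its log2 fold change was 0.65 ± 0.16 in HRD cells and 0.25 ± 0.16 in HRA cells. CCT8, a subunit of the chaperonin that folds actin and tubulin, differed by 0.32 ± 0.09 in HRD cells and 0.21 ± 0.09 in HRA cells, and was called in HRA cells only with the replicate number as a block (limma adjusted p = 0.0427). LTN1, the ubiquitin ligase of ribosome quality control, was called in neither line. LTN1 had 1427, 1298 and 1499 normalized reads in HRD cells, 1345, 1249 and 1357 in HRA cells and 1294, 1314 and 1509 in parental cells. Its groups overlapped, at 0.04 ± 0.09 in HRD cells and -0.06 ± 0.09 in HRA cells.

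Of 8 tested membrane, surface and traffic genes, SYNJ1, ITSN1 and POFUT2 rose in HRD cells, and ITSN1 and POFUT2 rose in HRA cells. POFUT2 adds fucose to secreted and surface proteins. POFUT2 had 567, 699 and 651 normalized reads in HRD cells, 619, 545 and 592 in HRA cells and 457, 455 and 358 in parental cells. Both resistant lines lay above the parental libraries, at 0.60 ± 0.13 in HRD cells and 0.47 ± 0.13 in HRA cells. SYNJ1, a phosphoinositide phosphatase of endocytosis, differed by 0.57 ± 0.11 in HRD cells and 0.35 ± 0.11 in HRA cells, where it passed with replicate blocks (limma adjusted p = 0.0462) and by DESeq2 (0.0328) but not otherwise. ITSN1, an endocytic scaffold, differed by 0.49 ± 0.11 and 0.40 ± 0.11. APP, the amyloid precursor protein gene, differed by 0.25 ± 0.10 and 0.26 ± 0.10 and passed in neither line, but in HRD cells it passed with upper-quartile scaling (limma adjusted p = 0.044) and with replicate blocks (0.0486).

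SLC37A1 and JAM2 were the members with the lowest read counts that passed the filter. SLC37A1 encodes a phosphate-linked transporter of glucose 6-phosphate. SLC37A1 had 82.8, 96.4 and 80.1 normalized reads in HRD cells, 35.6, 74.4 and 41.4 in HRA cells and 66.2, 74.8 and 55.5 in parental cells. HRD libraries lay above the parental and HRA libraries, and HRA replicates 1 and 3 lay below the parental range. JAM2 encodes a junctional adhesion molecule. JAM2 had 13.9, 15.1 and 20.3 normalized reads in HRD cells, 4.89, 6.76 and 11.0 in HRA cells and 5.05, 13.5 and 3.00 in parental cells. Its reads summed to 57 over the HRD, 21 over the HRA and 22 over the parental libraries, and it passed the filter through HRD cells. The difference of 1.29 ± 0.50 in HRD cells was the largest of the 47 genes and did not pass (limma adjusted p = 0.0902), except without parental replicate 2 (0.0245). BACE2, an aspartic protease that cleaves APP, had 1 read in parental replicate 1 and TIAM1, an exchange factor for RAC, had 2 reads in HRD replicate 3, with no read of either elsewhere. TRAPPC10, of a tethering complex for transport vesicles, and TMEM50B passed in neither line, at 0.14 and 0.18 in HRD cells and 0.20 and 0.17 in HRA cells.

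The 4 metabolic enzymes rose in HRD cells, with log2 fold changes between 0.42 and 0.46, and GART, AGPAT3 and CRYZL1 rose in HRA cells. GART carries several steps of purine synthesis in one protein. GART had 12756, 11741 and 11634 normalized reads in HRD cells, 10893, 11114 and 11518 in HRA cells and 8841, 9704 and 8230.0 in parental cells. Each HRD library exceeded each HRA library, and each HRA library exceeded each parental library. GART differed by 0.43 ± 0.08 in HRD cells and 0.33 ± 0.08 in HRA cells. The GART call in HRA cells was lost without any one of the HRA libraries (limma adjusted p = 0.067, 0.0701 and 0.0771 without replicate 1, 2 or 3) and without parental replicate 1 (0.0535) or 3 (0.0665). AGPAT3, an acyltransferase of phospholipid synthesis, averaged 2327 ± 73.3, 2334 ± 38.7 and 1734 ± 92.6 normalized reads in HRD, HRA and parental cells (SD, n = 3 each), at 0.42 ± 0.07 in HRD cells and 0.43 ± 0.07 in HRA cells. PDXK, the kinase that activates vitamin B6, differed by 0.46 ± 0.09 in HRD cells and 0.10 ± 0.09 in HRA cells. The CRYZL1 call in HRA cells (0.29 ± 0.09) was also lost without the level filter (limma adjusted p = 0.0642), with upper-quartile scaling (0.0563) and with the HRA and parental libraries alone (0.0519).

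DONSON, which protects and starts replication forks, rose in both lines. DONSON had 1573, 1550.1 and 1389 normalized reads in HRD cells, 1485, 1783 and 1481 in HRA cells and 1172, 1279.7 and 991 in parental cells. Resistant libraries all exceeded the parental libraries, at 0.40 ± 0.11 in HRD cells and 0.47 ± 0.11 in HRA cells. MCM3AP, the scaffold of the mRNA export complex TREX-2, rose in HRD cells at 0.33 ± 0.08 and was at 0.17 ± 0.08 in HRA cells. PCNT, which encodes the centrosomal protein pericentrin, was at 0.18 ± 0.09 and 0.14 ± 0.09 and passed in neither line. Of the signalling and growth genes, DYRK1A, a kinase studied in megakaryoblastic leukaemia, rose in HRD cells at 0.34 ± 0.09 and was at 0.04 ± 0.09 in HRA cells, and the HRD call was lost without parental replicate 3 (limma adjusted p = 0.0622). DIP2A rose in HRD cells at 0.58 ± 0.10 and was at 0.21 ± 0.10 in HRA cells. BTG3, an antiproliferative factor of the BTG family, was at 0.18 ± 0.09 and 0.10 ± 0.09 without a call.

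Set against each other, HRD cells had the higher mean log2 level of 35 of the 47 genes, and of 50.3% of all tested genes. Relative to HRA cells, 12 of the 47 rose in HRD cells, where 13.9% of all tested genes rose, and TTC3 fell, where 16.2% of all tested genes fell. The 12 were USP25, USP16, MRPS6, MORC3, DYRK1A, BRWD1, HMGN1, SLC37A1, PKNOX1, U2AF1, PDXK and DIP2A. The median difference was 0.11 over the 47 genes and 0.00 over all tested genes. MRPS6 (0.66 ± 0.11), BRWD1 (0.58 ± 0.13), HMGN1 (0.44 ± 0.08), USP25 (0.39 ± 0.08), USP16 (0.39 ± 0.08) and PDXK (0.36 ± 0.09) passed whichever library was left out. SLC37A1 differed by 0.83 ± 0.27, with HRD libraries above all HRA libraries, and TTC3 by -0.24 ± 0.08. The other calls were lost without at least 1 library, with the highest limma adjusted p for MORC3 (0.135 without HRA replicate 1), TTC3 (0.122 without HRA replicate 3), DYRK1A (0.0891 without HRA replicate 1), SLC37A1 (0.152 without HRA replicate 1), PKNOX1 (0.136 without HRA replicate 3), U2AF1 (0.13 without HRD replicate 1) and DIP2A (0.0801 without HRA replicate 1). Without the level filter MORC3 (limma adjusted p = 0.0652), SLC37A1 (0.0711), PKNOX1 (0.0656), U2AF1 (0.066) and TTC3 (0.0557) were lost. SLC37A1 was also lost with the HRD and HRA libraries alone (0.0537) and PKNOX1 by edgeR (0.0511), while PRMT2 was gained with upper-quartile scaling (0.0493) and CSTB by DESeq2 (0.0431). No call fell in the block from SYNJ1 to DONSON by limma, edgeR or DESeq2, where 1 gene was higher at an unadjusted p under 0.05, and 9 of the 12 rising genes lay in the blocks from CRYZL1 to PRDM15 and from SLC37A1 to TRAPPC10.

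Genes that start head to head did not always share a call. Of the 3 pairs of members that start head to head, CRYZL1 and ITSN1, with starts 760 bases apart, were called in both lines. GART was called in both and SON in neither. MCM3AP was called in HRD cells (0.33 ± 0.08) and YBEY, whose start lies 731 bases away, was not (0.29 ± 0.14). In HRA cells neither was called, at 0.17 ± 0.08 for MCM3AP and 0.36 ± 0.14 for YBEY. This pair thus differed in call but not in direction, and the SE of YBEY was the larger. Whether strand was used in counting is not given in the sources used here, so reads of overlapping transcripts may be shared, which touches IL10RB and its antisense gene, MRPS6 and SLC5A3, and the antisense genes of URB1, PAXBP1 and MCM3AP.

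For 10 complexes or families with 1 tested chromosome 21 gene, that gene lay above every tested partner encoded elsewhere in 6 for HRD cells and in 4 for HRA cells, and above the partners' median in 10 and 8. The lists are of unlike size, from 1 partner (METTL1, beside WDR4) and 2 (CAF-1) to 9 (TRAPP). WDR4 is counted in HRD cells at -0.01, against -0.36 for METTL1. The place of the chromosome 21 gene is a description, since these genes were chosen from the same contrasts. CHAF1B and U2AF1 lay below their partners' median in HRA cells. Over 71 tested partners, 9 (12.7%) rose and 4 (5.63%) fell in HRD cells by limma (median 0.04), where 10.7% of all tested genes rose and 12.0% fell. In HRA cells 6 (8.45%) rose and 0 fell by limma (median -0.01), where 9.13% of all tested genes rose and 6.10% fell. There edgeR called 0 and DESeq2 3 of the 71 lower, and 10 were lower at an unadjusted p under 0.05. Of all 12569 tested genes, these counts were 743, 987 and 1797, so nothing is read from them. CCT8 stood at 0.32 in HRD cells and 0.21 in HRA cells, while the medians of the other 7 chaperonin subunits were 0.07 and -0.17. None of these 7 was called by limma or edgeR in either line, DESeq2 called 1 lower in HRA cells, and 1 in HRD and 2 in HRA cells were lower at an unadjusted p under 0.05. They ran from -0.25 (CCT2) to 0.15 (CCT4) in HRD cells and from -0.33 (CCT5) to 0.12 (CCT6A) in HRA cells. GART stood at 0.43 and 0.33, against medians of -0.14 and -0.16 for 5 other purine synthesis enzymes. Of those, ATIC rose in HRD cells (0.29 ± 0.08) and ADSL was lowest in both lines (-0.26 and -0.30), without a call.

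Of the 5 UTP-B partners of PWP2, 4 lay below 0 in HRD cells and WDR3 stood at 0.0061. UTP6 fell by 0.89 and UTP18 by 0.35 (log2), and the median of the 5 was -0.35, while PWP2 stood at 0.33. In HRA cells 0 of the 5 was called by limma, edgeR or DESeq2, with 1 lower at an unadjusted p under 0.05 and a median of -0.11. CHAF1B was not called in HRA cells, while its CAF-1 partners CHAF1A (0.49 ± 0.08) and RBBP4 (0.32 ± 0.07) rose there and were at -0.17 and 0.03 in HRD cells. Beside MCM3AP, the TREX-2 subunit ENY2 rose in HRD cells (0.40 ± 0.07) and in HRA cells (0.71 ± 0.07), SEM1 rose in HRA cells (0.28 ± 0.08), and 3 other subunits were not called in either line by limma, of which DESeq2 called 1 lower in HRA cells. Beside LTN1, TCF25 rose (0.35 ± 0.10) and NEMF fell by 0.37 in HRD cells, of 5 ribosome quality control genes, and in HRA cells limma, edgeR and DESeq2 called 0 of them, with 0 at an unadjusted p under 0.05.

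Of 9 genes for APP-cleaving secretases and their subunits, NCSTN, APH1B, ADAM10 and ADAM17 rose in HRD cells, by 0.26 to 0.61, and PSENEN rose in HRA cells (0.40 ± 0.11). HMGN1 stood at 0.51 in HRD cells, and the HMGN genes of other chromosomes ran from -0.06 (HMGN3) to 0.36 (HMGN5). No HMGN gene elsewhere was called by limma, edgeR or DESeq2 in either line, and 2 of 4 were higher in HRD cells at an unadjusted p under 0.05. At that level 2145 of all 12569 tested genes were higher in HRD cells. The 5 genes of splice site recognition beside U2AF1, 6 genes of tail-anchored protein insertion, 9 TRAPP subunits and METTL1 had 0 calls by limma, edgeR or DESeq2 in either line. At an unadjusted p under 0.05, 1, 1, 1 and 1 of them differed in HRD cells and 2, 2, 1 and 0 in HRA cells. TRAPPC6A had the largest difference among these, 0.75 ± 0.36 in HRD cells and 0.63 ± 0.36 in HRA cells, without a call.

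**Figure D4:**
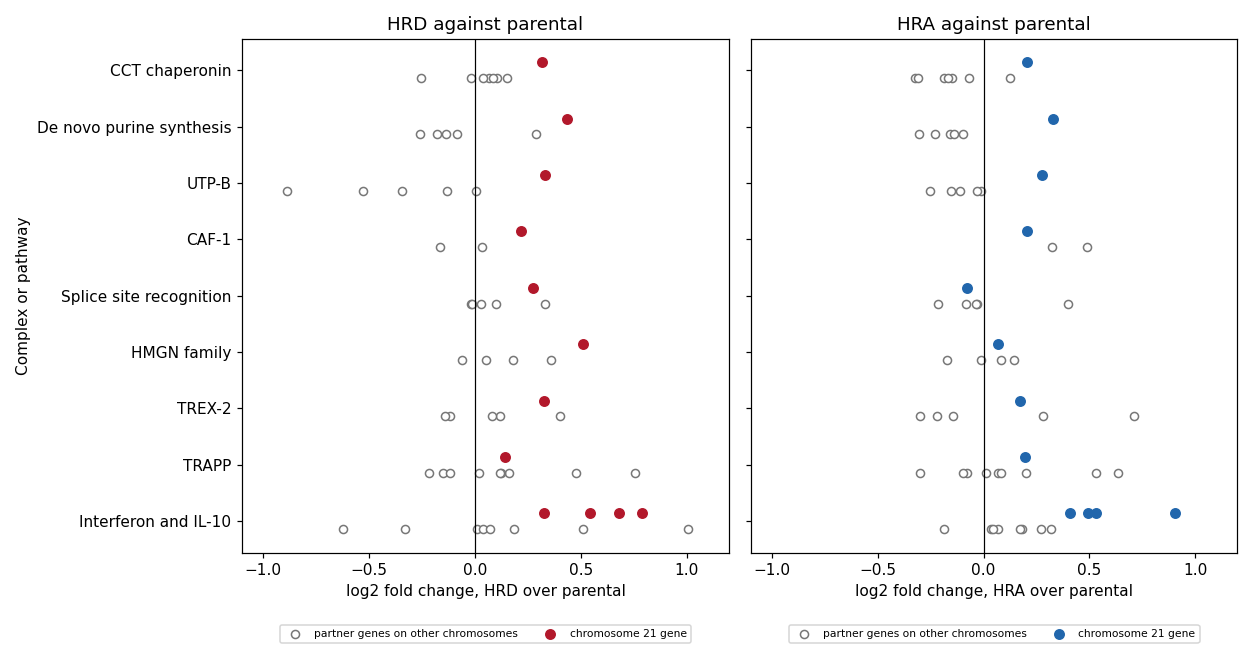
The log2 fold change (x axis) of chromosome 21 genes (filled) and of partner genes on other chromosomes (open) in 9 complexes or pathways (y axis), HRD over parental cells on the left and HRA over parental cells on the right. The filled point lies right of all open points for the CCT chaperonin, purine synthesis and UTP-B rows in both panels, and the receptors in the lowest row lie between 0.33 and 0.79 on the left and between 0.41 and 0.90 on the right.

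The protein-coding genes of chromosome 21 outside the list were mostly above parental levels too. Of 61 such tested genes, 52 lay above 0 in HRD cells and 40 in HRA cells, where 51.1% and 49.2% of all tested genes did. In HRD cells 20 (32.8%) rose and 1 (1.64%) fell (median 0.30), where 10.7% of all tested genes rose and 12.0% fell. In HRA cells 8 (13.1%) rose and 1 (1.64%) fell (median 0.12), nearer to the 9.13% of all tested genes that rose there, while 6.10% fell. Over all 108 tested coding genes of the chromosome the median was 0.33 in HRD cells, the highest of 23 chromosomes (1 to 22 and X), with chromosome 8 next at 0.16. In HRA cells it was 0.17, behind chromosomes 8 (0.49), 19 (0.30) and 7 (0.27). Difference from the other chromosomes was not tested, since the genes were chosen from these contrasts.

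**Figure D5:**
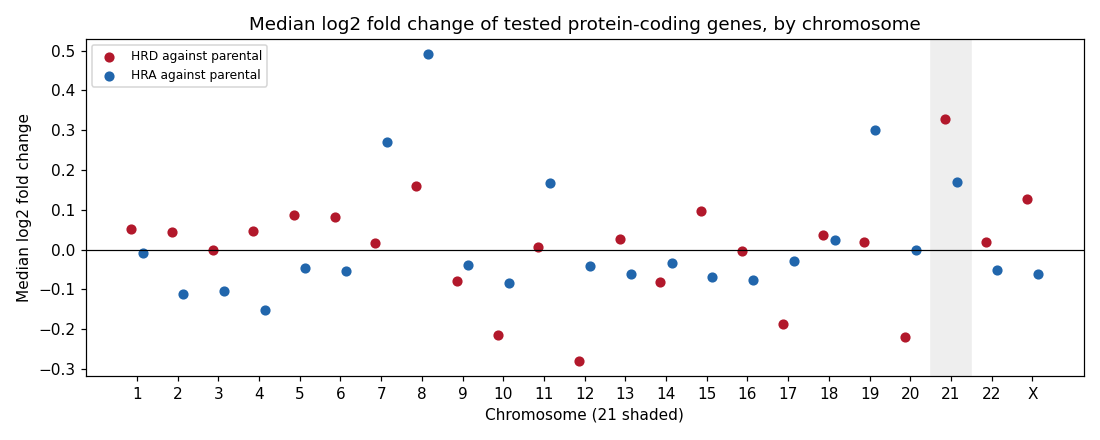
The median log2 fold change (y axis) of tested protein-coding genes on each of 23 chromosomes (x axis, chromosome 21 shaded), HRD over parental cells in red and HRA over parental cells in blue. Chromosome 21 has the highest red point, at 0.33, and the fourth blue point, at 0.17.

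Recovered reads ran from 22300023 to 66563328 in HRD, 25225828 to 47537926 in HRA and 20822709 to 58534264 in parental libraries, and 15360 to 17027 genes per library had reads. The spread between replicates was 15.3 to 60.3 times that of counting error (chi-square per degree of freedom). Of 10 promyelocyte markers, 9 passed the level filter, with MPO at 199686 to 314199 normalized reads, while ELANE, neutrophil elastase, had 0 to 4.06. Their summed level was 239270.1 to 299504 in HRD, 289601 to 321235 in HRA and 310299 to 355246 in parental libraries, most of it MPO. LYZ, lysozyme, went the other way, with 10528 to 11316 in HRD, 6504 to 7265 in HRA and 2813 to 3435 in parental libraries. In HRA cells CD33 (2982 to 3132), SPI1 (3531 to 3972) and MYB (13929 to 16415) also lay above all parental libraries. Those held 2347 to 2594, 2278 to 3192 and 12723 to 13141. CTSG (3914.5 to 4463 against 9565 to 11814) and PRTN3 (549 to 896 against 1515 to 3570) lay below them in HRA cells. In HRD cells CTSG and MPO lay below all parental libraries, and only LYZ above. Summed T cell (5 of 5 with a row), B cell (3 of 4) and fibroblast or epithelial markers (2 of 5) reached 9.92, 6.95 and 9.43 in HRD, 33.8, 40.6 and 0.70 in HRA and 21.3, 19.6 and 4.91 in parental libraries. CD3E, MS4A1 and ALAS2 had no read in HRD libraries, MS4A1, CD22, ALAS2 and KRT18 none in HRA libraries, and CD3G, CD22 and COL1A1 none in parental libraries. Of 4 erythroid markers used, 2 had a row, and EPOR, the erythropoietin receptor, carried nearly all of their sum, with 91.8 to 151 in HRD, 151 to 170.5 in HRA and 91.5 to 130.4 in parental libraries. The part of these markers in the differences above was not tested.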

How the data were processed

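Polyadenylated RNA of HRD, HRA and parental HL-60 cells (3 libraries each, TruSeq stranded kit per the labels) was read from the 1 deposited table. The signal values deposited by the authors are gene counts divided by a size factor per library. All values were whole multiples of 1 step per library within 0.001, so whole reads could be recovered. The submitters' processing notes list HTSeq 0.11.1, TopHat2 2.1.1 and Bowtie2 2.3.5.1, with DESeq2, Picard and Cufflinks 2.2.1, on hg19. Their roles and order and the annotation are not given in the sources used here.

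Values were tested as log2(value + 1) in 1 limma 3.58.1 fit with a trend (R 4.3.3) over all 9 libraries and 12569 genes, with Benjamini-Hochberg adjustment over all of them at 0.05. Fold changes are on that scale, which understates the change of low genes, and errors are standard errors unless named SD. With 3 libraries a group, exact permutation allows no p below 0.1. The fit was checked on simulated data. A normalized value corresponding to 3 reads was 1.49 to 4.52.

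Deviations of same-numbered HRA and parental libraries correlated at 0.22, 0.38 and 0.14, above the limit of 0.1 for each pair, so the replicate number was taken to pair them. Counts, figures and calls above are nevertheless from the fit without the block, unless the block is named. The blocked adjusted p is given beside each call of HRA over parental cells that it changed. Whole reads were also tested with edgeR 4.0.16 and DESeq2 1.42.0. Other alternatives were a pseudocount of 5, no filter, a filter at 50, upper-quartile scaling, the libraries of the compared groups alone and leaving out each library.

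Chromosomes, gene order, strand and promoters come from RefSeq tables of GRCh38.p14, matched by symbol, which placed 19655 rows. Some listed genes are not reported here and enter no list count, median or sum. The members, role groups and partner lists were chosen with earlier results of these data known. Genes given by library are the 4 receptors, RRP1, RRP1B, GART, SON and the 5 highest and 5 lowest members of each comparison, and partners are named where they passed or lay at an end of their list. Tables and figures used Python 3.11.15 with numpy 2.4.6, pandas 2.3.3 and matplotlib 3.10.9.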

Additional observations from a re-analysis of the deposited data

Results flagged for a closer look

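USP16, the histone H2A deubiquitinase, was flagged because its differences from parental cells had opposite signs in the resistant lines, with a call over parental cells and a call between the lines. Opposite signs were not particular to it. SLC37A1, PKNOX1, U2AF1, SON, LTN1 and WDR4 had them too, without a limma call against parental cells, and the first 3 of these were called between the lines. USP16 had 4480.2, 3850.3 and 3914 normalized reads in HRD cells, 3196, 2954 and 3203 in HRA cells and 3387, 3427 and 3377 in parental cells. The log2 difference was 0.26 in HRD cells, which passed with all libraries but not without HRD replicate 1 or any one of the parental libraries (limma adjusted p = 0.0717, 0.0723, 0.0757 and 0.0753), without the level filter (0.0534) or with the HRD and parental libraries alone (0.0839), and -0.12 in HRA cells, which did not. HRD minus HRA cells was 0.39 ± 0.08 (limma adjusted p = 0.00423), with 3 of 3 HRD libraries above all HRA libraries. The genes were chosen from these contrasts, so this value is a description.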

How the results depend on the processing

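Over 642 alternative settings of 46 single-gene values, 589 kept direction and side of the threshold, 34 lost the call, 6 gained it and 13 turned sign. The turned values are of genes near 0. In HRD over parental cells, WDR4 was 0.0046 with upper-quartile scaling, and with 1 library left out ran from -0.0931 to 0.1078, PRDM15 from -0.2124 to 0.0498, PAXBP1 from -0.1057 to 0.1101, LTN1 from -0.0083 to 0.1086 and PKNOX1 from -0.0068 to 0.124. In HRD over HRA cells, IFNAR2 ran from -0.0221 to 0.123 and IL10RB from -0.3238 to 0.0406. Turned by single libraries were WDR4 (HRD replicate 1 or 2, parental replicate 1), PRDM15 (HRD 2), PAXBP1 (HRD 2, parental 1 or 3), LTN1 (HRD 3, parental 1), PKNOX1 (parental 3), IFNAR2 (HRA 3) and IL10RB (HRA 2). With 1 library left out, chromosome 21 genes called higher numbered 19 to 25 in HRD and 3 to 12 in HRA cells, and 6 to 9 in HRD over HRA cells, with 0 to 1 called lower there, genes gained included. Their median in HRD cells ran from 0.2943 (without parental replicate 3) to 0.3845. All called genes numbered 904 to 1539 of 1915 in HRA cells (904, 946 and 1242 without HRA replicate 1, 2 or 3) and 2391 to 3280 of 3787 in HRD over HRA cells. In HRD over parental cells all called genes numbered 2034 to 2899, beside 2863 with all libraries. Fewer libraries entered these fits. Without the level filter, where all 20637 genes were adjusted over, the 12 genes called higher in HRD over HRA cells became 8, losing MORC3, SLC37A1, PKNOX1 and U2AF1, and 0 were called lower, against 1 (TTC3) with it. Over all genes, 1749 called higher became 1582 there, and 2038 called lower became 1847. With the replicate number as a block, the 12 calls of HRA over parental cells became 16, adding CCT8, URB1, SYNJ1 and IFNGR2, the 27 of HRD over parental cells became 28 (adding APP), and the 12 higher in HRD over HRA cells became 14 (adding IFNGR2 and PRMT2). All tested genes called higher went from 1148 to 1572, from 1350 to 1744 and from 1749 to 2257 in the same comparisons. Same-numbered HRD libraries deviated with parental libraries at -0.08, 0.26 and 0.29 and with HRA libraries at -0.03, 0.41 and 0.23. Replicate 1 lay below the limit of 0.1, so the number was not taken to pair HRD libraries. Replicates 2 and 3 lay above it, so a shared part of the replicate number in HRD cells is not excluded. The block changed no other call of the chromosome 21 genes. Low read counts limit JAM2, SLC37A1, BACE2 and TIAM1.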
